A study of Mus musculus with 12 samples.

Results

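The libraries compared here came from cultured mouse heart cardiomyocytes labelled as conditional Chaf1a knockouts, and from controls. The question the comparison addresses is which transcripts differ when heart muscle cells lack Chaf1a. The knockout group, Chaf1a cko, carried Myh6-Cre and Chaf1a f/f, in which the Myh6 promoter drives the Cre recombinase in cardiomyocytes, where it is to cut the floxed gene. The control group, Ctrl, was Chaf1a f/f without Cre, and its genotype was labelled WT. Both groups thus shared the floxed allele, and Cre and the deletion went together, so that an effect of Cre alone cannot be told apart from that of the deletion. Each group had 3 libraries (Ctrl 1, 2 and 3 and Chaf1a cko 1, 2 and 3). The labels gave no age, sex, strain or culture time for them and did not say whether replicates were separate animals or cultures, so that the p-values measure only how these libraries vary, and part of that may be technical. All 6 libraries carried the same batch number. A second set of libraries in the series, labelled 3M, was not used here.

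The genes described were chosen by level alone: every gene symbol of the first count table with a mean of at least 10 CPM (counts scaled to the library total) over the 6 libraries. That rule kept 10200 of 25239 symbols, or 40.4%. Of these, 10199 were tested. The one left out, Amd2, had counts in only 2 libraries. The genes kept held between 94.9% and 95.4% of each library's counts.

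CHAF1A is the biggest protein of CAF-1, the chromatin assembly chaperone that places histones H3 and H4 on newly copied DNA behind the replication fork, where it is held by the sliding clamp PCNA. CAF-1 is needed most in cells that copy their genome, and its loss in embryonic and stem cells is known to loosen cell identity. Heart muscle cells of the mouse copy their DNA around birth, mostly without dividing, and then leave the cell cycle while their metabolism turns from sugar to fat and their contractile proteins change from fetal to adult forms. The lists of genes below follow those processes, and cell types other than cardiomyocytes were covered by lists of their markers.

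Depth was even, from 15068468 to 20896673 counts in Ctrl and from 16529103 to 20879414 in Chaf1a cko. The first principal component of the log2 CPM, with 28.4% of the variance, put all Ctrl libraries below zero and all Chaf1a cko libraries above it. Chaf1a itself did not check the labels: it stood at 22.7, 32.3 and 18.8 CPM in Ctrl against 29.0, 24.5 and 21.95 CPM in Chaf1a cko (log2 fold change 0.03 ± 0.18 (SE), edgeR adjusted p = 0.981). These values overlapped. The count covers the whole gene, and whether transcripts without the floxed exons were among those counted was not tested. Genes on the Y chromosome differed between the groups. Ddx3y, an RNA helicase gene, was at 37.1, 25.4 and 28.1 CPM in Ctrl against 74.4, 56.8 and 64.5 CPM in Chaf1a cko (log2 fold change 1.12 ± 0.14 (SE), edgeR adjusted p = 0.0002). Eif2s3y, Uty and Kdm5d rose as well, with log2 fold changes of 1.25, 1.26 and 1.30 (the last called in 2 of the 6 fits that left out 1 library), and the sum of the 4 genes was 55.6 ± 6.05 CPM in Ctrl against 127 ± 9.51 CPM in Chaf1a cko (mean ± SD, n = 3). Xist, the RNA that coats the inactive X chromosome, was at 589, 620.5 and 291 CPM in Ctrl against 323, 276 and 269.7 CPM in Chaf1a cko, and the groups overlapped (edgeR adjusted p = 0.574). Of 9 genes on a list of X-inactivation and escape genes, 1 fell, Ddx3x (log2 fold change -0.16 ± 0.04 (SE), edgeR adjusted p = 0.0279), and it was called in none of the fits without 1 library. The share of male and female cells in a library is not in the labels, and its difference between the groups cannot be told apart from the genotype.

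Single libraries set the level of a few genes. Lars2 read 3199 CPM in Chaf1a cko 3 and 24.5 to 33.9 CPM in the other 5 libraries, and the ribosomal RNA precursor Rn45s took 7.69% of the counts of Chaf1a cko 3 against 4.56% to 5.89% elsewhere. Ankrd11 was at 644 and 630.2 CPM in Chaf1a cko 1 and 3 and at 128 to 134.3 CPM in the rest. The beta-globin gene Hbb-bs was at 609 CPM in Ctrl 3 and at no more than 37.1 CPM in any other library. None of these genes passed the test. Reads were also counted on genes that heart cells are not known to use. Of 1500 odorant, vomeronasal and trace amine receptor genes, 1315 had a count in every library, with a median level of 1.67 CPM and a 95th percentile of 5.32 CPM, and 12 reached 10 CPM. At the lower edge of the rule, Sntg1, Atraid and Mvb12a lay just below 10 CPM and Mtmr11, Mfsd10 and Gm5512 just above it, with means within 0.01 CPM of the threshold, and none of the 6 was called.

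A gene was called when edgeR's quasi-likelihood test, fitted on all 22965 genes with enough counts, gave a Benjamini-Hochberg adjusted p below 0.05. By that rule 253 of the 10199 genes were called, which is 2.48%. Of these, 164 were higher in Chaf1a cko (1.61%) and 89 were lower (0.873%). When only genes with at least 10 CPM in 3 libraries entered the fit, 189 were higher and 171 lower, and the median log2 fold change of all genes moved to 0.00. At an unadjusted p below 0.05 there were 1641 genes (16.1%), and in 2175 genes (21.3%) the 3 values of one group lay wholly outside the range of the other. The differences were small: the median absolute log2 fold change over all 10199 genes was 0.12, the median change of the called genes was 1.33-fold, and 10 of the 253 passed 2-fold. In 83 called genes the change was under 1.25-fold. The median log2 fold change of all genes was 0.03, the level against which the lists below are read. Their counts of called members are to be read against the 1.61% of all genes called higher and the 0.873% called lower. Only 17 of 12766 tested genes under 10 CPM were called (0.133%).

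Calls rose with abundance. They made up 0.525% of genes at 10 to 20 CPM, 1.42% at 20 to 50 CPM, 2.57% at 50 to 100 CPM, 5.48% at 100 to 500 CPM and 31.3% of the 160 genes at 500 CPM or more. Called shares of the lists below were not adjusted for level. Those of lists with abundant genes are thus set against genes of lower level. In simulated libraries of these depths the same test found 91 of 100 2-fold changes and 16 of 100 1.3-fold changes, and it made 13 false calls. Each library carried weight. The number of called genes was 187, 123 and 151 without Ctrl 1, 2 and 3 in turn and 127, 118 and 123 without Chaf1a cko 1, 2 and 3, and 89 of the 253 were called in all 6 of these fits. All 253 kept their direction in every one of them. These fits reuse libraries on which the genes were called, so that a kept direction was nearly fixed beforehand. Below, a call that held in all 6 fits is said to have held, and for other named genes the number of those fits with a call is given.

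**Figure D1:**
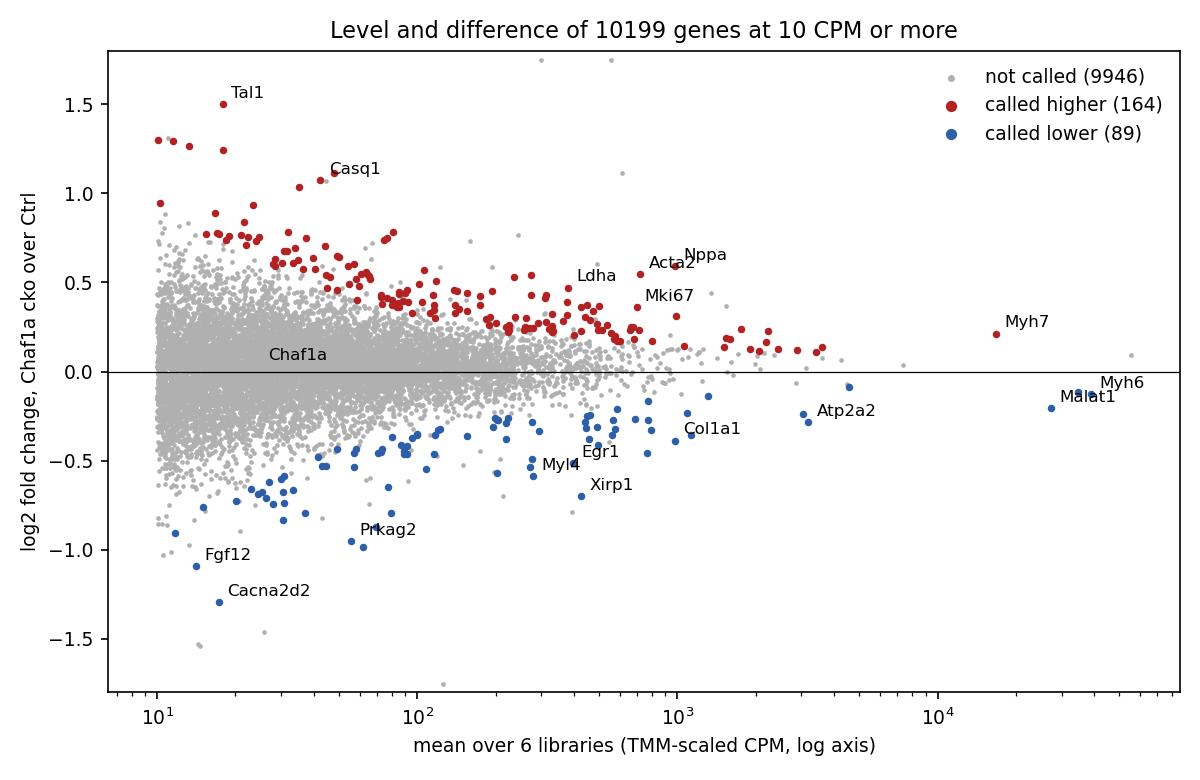
Mean level over the 6 libraries (TMM-scaled CPM, log axis) against the log2 fold change of Chaf1a cko over Ctrl, 1 point for each of the 10199 genes. The 164 genes called higher are red and the 89 called lower are blue; 3 uncalled genes beyond 1.75 on the log2 scale are drawn at the edge, and called genes come closer to 0 as the level increases.

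The largest rises were in genes of modest level. Tal1, a factor that blood and vessel lining cells need, rose 2.83-fold and stood at 10.4, 7.92 and 9.83 CPM in Ctrl against 28.0, 26.3 and 25.1 CPM in Chaf1a cko (log2 fold change 1.50 ± 0.17 (SE), edgeR adjusted p = 7.72e-05). Casq1, the calcium buffer of skeletal muscle sarcoplasmic reticulum, rose 2.11-fold and stood at 25.02, 25.5 and 31.4 CPM in Ctrl against 56.5, 59.2 and 57.1 CPM in Chaf1a cko (log2 fold change 1.08 ± 0.12 (SE), edgeR adjusted p = 4.34e-05). Both calls held. The 12 largest rises and the 12 largest falls were taken only from called genes whose groups did not overlap. The lack of overlap in these genes was thus fixed beforehand. Outside the histone and Y-linked genes, the next in size were the simple epithelial keratin Krt18 (0.94, called in 0 of 6 fits), the mitochondrial ribosomal protein gene Mrpl35 (0.89, 1 of 6), Pdcd5 (0.84, 3 of 6) and the histone chaperone gene Nap1l1 (0.78, 5 of 6). Dnajc9, which encodes a co-chaperone that handles histones H3 and H4, rose by 0.77 (0 of 6) and the neuronal protein gene Bex1 by 0.75, a call that held. The rest of the 12 largest were Cdk5rap3, Cacna1a, Cnn1 and Nuf2, between 0.75 and 0.77 on the log2 scale and called in 1, 0, 2 and 1 of the 6 fits.

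The largest falls were in genes of other functions. Cacna2d2, whose protein assists voltage-gated calcium channels at the membrane, was 2.45-fold lower, at 21.7, 21.5 and 30.5 CPM in Ctrl against 8.06, 10.1 and 11.8 CPM in Chaf1a cko (log2 fold change -1.29 ± 0.20 (SE), edgeR adjusted p = 0.00153). Nr2f2, the nuclear receptor that sets atrial identity in the developing heart, stood at 81.4, 77.0 and 87.4 CPM in Ctrl against 39.2, 40.8 and 44.2 CPM in Chaf1a cko (log2 fold change -0.98 ± 0.10 (SE), edgeR adjusted p = 1.13e-05). Prkag2, a regulatory subunit of the AMP-activated protein kinase whose mutations cause glycogen storage in the heart, was at 70.9, 74.7 and 74.1 CPM in Ctrl against 40.5, 35.3 and 37.7 CPM in Chaf1a cko (log2 fold change -0.95 ± 0.10 (SE), edgeR adjusted p = 2.05e-05). These 3 calls held, and the lack of overlap between their groups was a condition of the choice. Fgf12, an intracellular modulator of sodium channels, fell by 1.09 on the log2 scale (2 of 6). Fmod, a collagen-binding proteoglycan, fell by 0.83, and Dkk3, a secreted glycoprotein, fell by 0.87, and both calls held. The remaining large falls were those of Myl7, Kcnj3, Ltbp2, Dlk1, Nxpe3 and Rasd1, with log2 fold changes from -0.90 to -0.74. Nxpe3 and Rasd1 were called in none of the 6 fits.

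**Figure D2:**
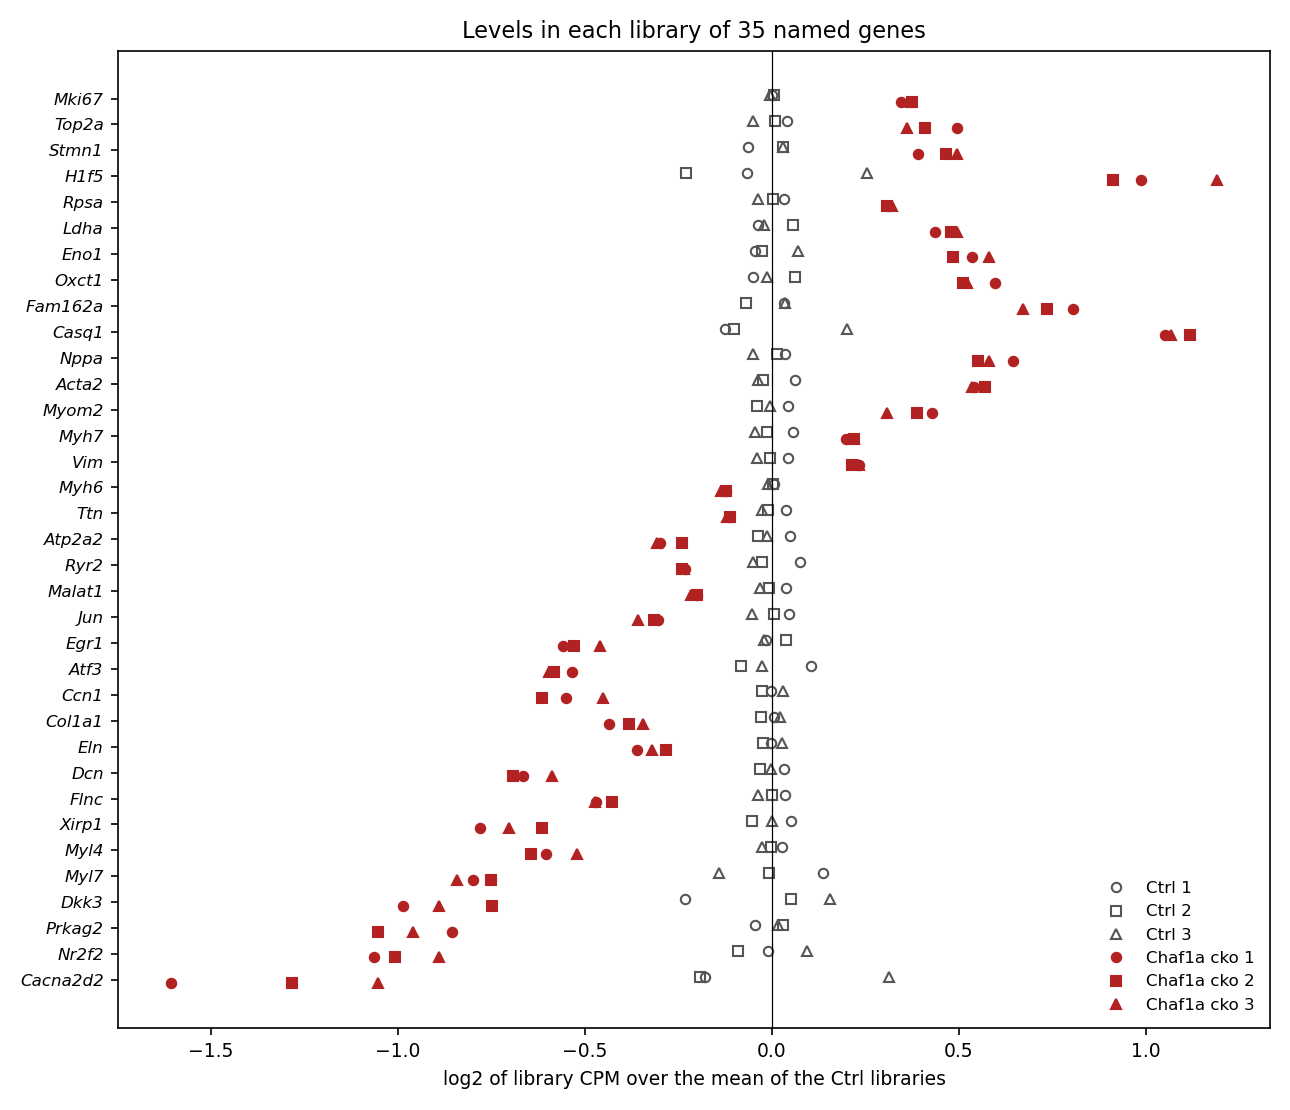
Log2 of each library's CPM over the mean of the 3 Ctrl libraries, for 35 genes named in the text; open grey marks are Ctrl libraries and filled red marks are Chaf1a cko libraries. In all 35 genes the 2 groups of marks are apart, and the spread within a group is widest for Cacna2d2, H1f5 and Dkk3.

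Histone and mitotic genes held many of the higher calls. Replication-dependent histone genes encode the histones that package DNA as it is copied. Of 42 of them at 10 CPM or more, 17 rose and none fell, 41 had a positive log2 fold change, and the median was 0.51. Their summed level was 1281 ± 7.96 CPM in Ctrl against 1808 ± 50.3 CPM in Chaf1a cko (mean ± SD, n = 3). In 33 of the 42 all 3 Chaf1a cko values lay above all Ctrl values, against 13.2% of all genes. Mitotic kinases, cyclins and spindle proteins were the next list: 9 of 50 rose, none fell, 48 were positive, and the median was 0.33.

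The promoters of these 2 groups are known for short shared sites, and those of some of the called genes are shown here to let that be seen. Windows of 300 bases, from 250 before to 50 after the annotated start, came from RefSeq on GRCm38.p6, the assembly that mm10 names. They are written 5′ to 3′ along the strand of the gene, with 3 motifs in capitals on either strand: TTTGAA (or TTCAAA), the core of the cell cycle genes homology region (CHR), CCAAT (or ATTGG), the site of the factor NF-Y, and TATAAA (or TTTATA), the TATA box.
Top2a, chr11:99024140-99024439 (minus strand): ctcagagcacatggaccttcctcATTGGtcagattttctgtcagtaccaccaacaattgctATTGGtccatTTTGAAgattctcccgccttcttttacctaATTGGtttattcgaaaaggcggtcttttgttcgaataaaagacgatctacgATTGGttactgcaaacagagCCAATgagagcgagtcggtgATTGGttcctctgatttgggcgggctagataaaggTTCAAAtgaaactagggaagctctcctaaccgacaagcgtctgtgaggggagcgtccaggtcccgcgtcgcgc
Hmmr, chr11:40733388-40733687 (minus strand): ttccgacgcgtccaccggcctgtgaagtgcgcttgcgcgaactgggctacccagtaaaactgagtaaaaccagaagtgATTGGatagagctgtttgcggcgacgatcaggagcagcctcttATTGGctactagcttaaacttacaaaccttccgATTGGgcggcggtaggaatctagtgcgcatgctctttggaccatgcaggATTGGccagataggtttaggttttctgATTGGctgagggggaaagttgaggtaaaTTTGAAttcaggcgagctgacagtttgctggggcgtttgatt
Kif11, chr19:37376132-37376431 (plus strand): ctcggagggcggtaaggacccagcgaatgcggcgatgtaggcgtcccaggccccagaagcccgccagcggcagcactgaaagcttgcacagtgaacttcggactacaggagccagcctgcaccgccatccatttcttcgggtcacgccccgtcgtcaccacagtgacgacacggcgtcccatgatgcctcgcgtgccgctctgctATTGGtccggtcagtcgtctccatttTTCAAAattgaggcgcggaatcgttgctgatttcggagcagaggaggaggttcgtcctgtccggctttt
Nuf2, chr1:169531415-169531714 (minus strand): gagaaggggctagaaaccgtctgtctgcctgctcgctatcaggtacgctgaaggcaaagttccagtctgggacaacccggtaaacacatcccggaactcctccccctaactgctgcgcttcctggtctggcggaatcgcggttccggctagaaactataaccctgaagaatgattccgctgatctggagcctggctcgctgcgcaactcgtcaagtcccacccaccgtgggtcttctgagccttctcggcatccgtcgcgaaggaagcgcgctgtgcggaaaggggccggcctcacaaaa
H1f5, chr13:21780576-21780875 (minus strand): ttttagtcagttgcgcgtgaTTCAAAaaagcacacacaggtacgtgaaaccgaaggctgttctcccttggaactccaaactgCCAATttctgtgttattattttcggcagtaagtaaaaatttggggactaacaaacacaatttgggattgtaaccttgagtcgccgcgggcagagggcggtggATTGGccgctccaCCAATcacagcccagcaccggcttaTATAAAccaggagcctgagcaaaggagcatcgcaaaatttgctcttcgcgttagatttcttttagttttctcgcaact
H1f3, chr13:23554782-23555081 (plus strand): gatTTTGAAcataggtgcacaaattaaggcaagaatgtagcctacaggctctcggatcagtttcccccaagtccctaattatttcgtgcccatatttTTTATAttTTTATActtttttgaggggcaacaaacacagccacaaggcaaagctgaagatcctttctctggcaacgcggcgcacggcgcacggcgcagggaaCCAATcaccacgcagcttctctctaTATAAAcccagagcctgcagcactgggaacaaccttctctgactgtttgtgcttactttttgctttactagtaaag
H2bc15, chr13:21753826-21754125 (plus strand): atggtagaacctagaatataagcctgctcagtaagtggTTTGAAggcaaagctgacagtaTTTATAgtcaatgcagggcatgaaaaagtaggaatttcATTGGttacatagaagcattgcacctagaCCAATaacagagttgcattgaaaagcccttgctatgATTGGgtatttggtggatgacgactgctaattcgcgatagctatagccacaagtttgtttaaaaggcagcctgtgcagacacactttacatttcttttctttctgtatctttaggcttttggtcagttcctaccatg

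In the Top2a window CCAAT occurs 6 times and TTTGAA 2 times, with 1 of the latter on the minus strand at position -23 from the start. Kif11 has 1 of each, the CCAAT at -45 and the TTTGAA at -19. The Nuf2 window holds none of the 3 motifs, and Nuf2 had the largest rise of the 9 called mitotic genes. H1f5 and H1f3 carry TATAAA on the gene's own strand at -28 and -26. A window was found for 8067 of the 10199 genes (79.1%). TTTGAA was in 11.8% of these and in 33 of 45 mitotic genes with a window (73.3%), 6 of 8 among those called. CCAAT was in 38.4% of all windows, in 75.6% of the mitotic windows and in 34 of 36 histone windows (94.4%). TATAAA was in 7.29% of all windows and in 22 of the 36 histone windows (61.1%). Across all genes, the 408 windows with both CCAAT and TTTGAA belonged to genes with a median log2 fold change of 0.09, of which 23 rose and 1 fell. Without the genes of the 2 lists there were 366, with a median of 0.06, of which 12 rose and 1 fell (3.55% called). Outside the same lists, 2.74% of genes with CCAAT alone, 2.25% of those with TTTGAA alone and 1.92% of those with neither were called, each with a median of 0.03. A match describes letters in the window, not a bound site.

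Among the histone genes, the linker histone gene H1f5 (chr13:21779832-21780625) stood at 21.9, 19.6 and 27.4 CPM in Ctrl against 45.5, 43.1 and 52.3 CPM in Chaf1a cko (log2 fold change 1.03 ± 0.14 (SE), edgeR adjusted p = 0.000452). H1f3 (chr13:23555032-23555807), another linker histone gene, was at 45.4, 40.8 and 43.6 CPM in Ctrl against 63.1, 65.0 and 67.6 CPM in Chaf1a cko (log2 fold change 0.59 ± 0.10 (SE), edgeR adjusted p = 0.00259), and H2bc15 at 29.3, 24.5 and 29.9 CPM in Ctrl against 46.1, 45.6 and 49.2 CPM in Chaf1a cko (log2 fold change 0.75 ± 0.12 (SE), edgeR adjusted p = 0.00242). In none of the 3 did the groups overlap, and all 3 calls held, as did that of H2ac18 on chromosome 3 (0.45). The called members differed in size of change, from 0.26 for H1f2 to 1.30 for H4c12, each called in 1 of the 6 fits. Histone genes of the clusters are close copies of each other, and no source used here gives how reads shared between copies were counted. Their number of calls depended on each library: it was 9, 6 and 8 without Ctrl 1, 2 and 3 in turn and 6, 5 and 7 without Chaf1a cko 1, 2 and 3. No member was called lower in any of these fits, which reuse the same libraries.

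Mki67, which encodes the proliferation antigen Ki-67, stood at 609, 611 and 607 CPM in Ctrl against 773, 789 and 788 CPM in Chaf1a cko (log2 fold change 0.36 ± 0.04 (SE), edgeR adjusted p = 1.37e-05), and its Ctrl values spread by less than 5 CPM. Top2a, the topoisomerase that untangles chromosomes before they part, was at 153, 150.1 and 144 CPM in Ctrl against 210.4, 198 and 192 CPM in Chaf1a cko (log2 fold change 0.42 ± 0.06 (SE), edgeR adjusted p = 0.000653). Hmmr, a spindle protein, was at 45.6, 52.6 and 49.9 CPM in Ctrl against 70.9, 73.3 and 72.7 CPM in Chaf1a cko (log2 fold change 0.55 ± 0.09 (SE), edgeR adjusted p = 0.00366). All 3 were higher in every Chaf1a cko library than in any Ctrl library, and the 3 calls held. The kinetochore genes Cenpf (0.25) and Nuf2 (0.75), the spindle genes Tpx2 (0.37) and Kif11 (0.44), the mitotic kinase gene Nek2 (0.53) and the cytokinesis gene Anln (0.52) rose too, but each was called in only 1 or 2 of the 6 fits. The count of mitotic genes called was 5, 4 and 4 without Ctrl 1, 2 and 3 in turn and 3, 7 and 3 without Chaf1a cko 1, 2 and 3.

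Other genes of the same kind, from outside the list, also rose. The tubulin gene Tubb5 was at 379, 378 and 361 CPM in Ctrl against 471, 497 and 467 CPM in Chaf1a cko (log2 fold change 0.36 ± 0.05 (SE), edgeR adjusted p = 0.000148), and Stmn1, which frees tubulin from microtubules, was at 115, 122 and 122 CPM in Ctrl against 157, 165 and 169 CPM in Chaf1a cko (log2 fold change 0.45 ± 0.06 (SE), edgeR adjusted p = 0.000626). Both calls held and neither gene's groups overlapped. All 10 tubulin genes at 10 CPM or more had positive log2 fold changes, with 3 called, Tubb5, Tuba1b (0.37) and Tuba1a (0.43, 5 of 6).

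The machinery of DNA copying itself, with which CAF-1 works, had a single edgeR call, a share (2.63%) near the 2.48% of all genes. Of 38 genes of the replication origin and fork, 1 was called, the maintenance DNA methyltransferase gene Dnmt1 (log2 fold change 0.39 ± 0.08 (SE), edgeR adjusted p = 0.023, 2 of 6), and the median was 0.18. Pcna, the clamp that recruits CAF-1, was at 53.9, 45.0 and 51.9 CPM in Ctrl against 74.7, 61.4 and 63.1 CPM in Chaf1a cko and did not pass the test (edgeR adjusted p = 0.0952). In 14 of the 38 the Chaf1a cko values lay wholly above the Ctrl values, against 13.2% of all genes. Of the 38, 31 had a positive log2 fold change, and the Wald test of DESeq2 called 5 higher and 0 lower. Among architectural chromatin proteins 3 of 25 rose (12%, against 1.61% of all genes). Hmgb2, a chromatin protein of cycling cells, was at 219, 211 and 210.1 CPM in Ctrl against 259, 269 and 262 CPM in Chaf1a cko (log2 fold change 0.30 ± 0.05 (SE), edgeR adjusted p = 0.00399), a call that held, and Dek (0.25) was called in none of the 6 fits. Nap1l1, a chaperone of H2A and H2B, stood at 52.1, 55.6 and 70.3 CPM in Ctrl against 85.0, 112 and 110.0 CPM in Chaf1a cko, with no overlap. In the condensin and cohesin list Ncapd2 (0.38, 1 of 6) and Smc4 (0.22, 0 of 6) rose, 2 of 23 (8.7%, against 1.61% of all genes).

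None of 30 Polycomb and heterochromatin genes and none of 25 p53 target genes passed edgeR's test, with medians of 0.11 and 0.09, where 2.48% of all genes did. At an unadjusted p below 0.05, 5 and 7 of them passed, and DESeq2 called 1 of each list. Of 45 remodelers and histone modifiers 1 fell, the class II histone deacetylase gene Hdac5 (log2 fold change -0.32 ± 0.07 (SE), edgeR adjusted p = 0.0319, 1 of 6). Of 27 G1 regulators and inhibitors of cyclin-dependent kinases 1 fell, Myc (log2 fold change -0.45 ± 0.10 (SE), edgeR adjusted p = 0.0398, 1 of 6).

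**Figure D3:**
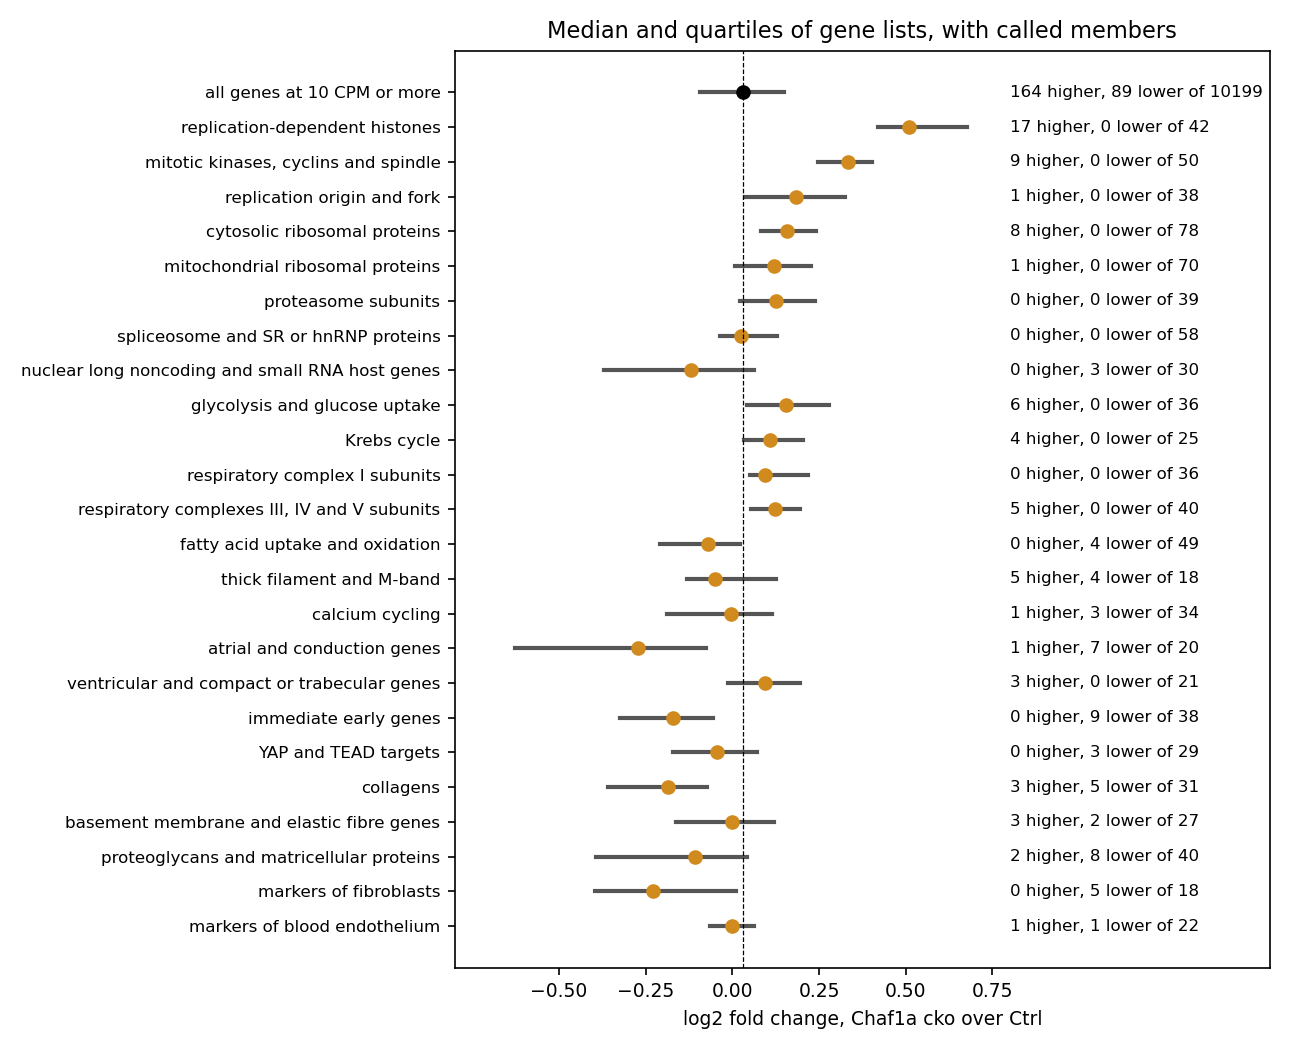
Median (dot) and quartiles (bar) of the log2 fold change of Chaf1a cko over Ctrl for 24 gene lists and for all 10199 genes, whose median of 0.03 is the dashed line; the number of called members is printed at the right. Histone and mitotic lists lie farthest to the right, and atrial, fibroblast, collagen and immediate early lists farthest to the left.

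Some genes of protein synthesis were slightly higher. Ribosomal proteins of the cytosol form the 2 subunits of the ribosome. Of 78 genes, 8 rose (10.3%, against 1.61% of all genes), none fell, and 71 were positive, with a median of 0.16. Their sum was 15061 ± 418 CPM in Ctrl against 17219 ± 64.6 CPM in Chaf1a cko. Rpsa, which encodes a protein of the small subunit and is also known as the laminin receptor, was at 900.3, 882 and 858 CPM in Ctrl against 1092, 1089 and 1099.6 CPM in Chaf1a cko (log2 fold change 0.31 ± 0.03 (SE), edgeR adjusted p = 2.83e-05). Rpl27 was at 86.2, 81.5 and 85.8 CPM in Ctrl against 113, 130.6 and 113 CPM in Chaf1a cko (log2 fold change 0.49 ± 0.08 (SE), edgeR adjusted p = 0.00192), and Rps24 and Rpl4 had log2 fold changes of 0.31 and 0.26. The Chaf1a cko values of all 4 lay above their Ctrl values, and the 4 calls held. Called ribosomal protein genes numbered 12, 5 and 6 without Ctrl 1, 2 and 3 in turn and 5, 4 and 4 without Chaf1a cko 1, 2 and 3. Ribosomal protein genes have many near-identical pseudogene copies, and no source used here gives how shared reads were counted.

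Elongation factor Eef1a1 (0.13) and the helicase gene Eif4a1 (0.25) were the 2 called of 44 translation factors, in none of the 6 fits without a library. None of 39 proteasome subunits, of 58 spliceosome and RNA-binding proteins or of 26 tRNA synthetases was called by edgeR, with medians of 0.13, 0.02 and 0.13. DESeq2 called 3, 1 and 0 of them, and 8, 13 and 5 were higher at an unadjusted p below 0.05, with none lower. Among 70 mitochondrial ribosomal proteins Mrpl35 was called. The heat shock gene Hsp90ab1 (0.12, 1 of 6) and the lysosomal protease gene Ctsb (0.34, 1 of 6) were the called members of the lists of cytosolic chaperones and of autophagy and lysosome genes.

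In the list of nuclear noncoding RNAs, 3 genes fell. Malat1, the abundant RNA of nuclear speckles, stood at 30071, 29145 and 28648 CPM in Ctrl against 25506, 25472 and 25196 CPM in Chaf1a cko (log2 fold change -0.21 ± 0.01 (SE), edgeR adjusted p = 6.53e-07). Neat1, the scaffold RNA of paraspeckles, was at 550.5, 495 and 506 CPM in Ctrl against 399, 411 and 386 CPM in Chaf1a cko (log2 fold change -0.38 ± 0.05 (SE), edgeR adjusted p = 0.000194). Both calls held, and the lowest Ctrl library was above the highest Chaf1a cko library in both. Meg3, an imprinted noncoding RNA, fell by 0.53 (2 of 6). These were the 3 called of 30 genes in the list, 10 of which had a positive value. The falls numbered 2, 3 and 3 without Ctrl 1, 2 and 3 in turn and 3, 2 and 2 without Chaf1a cko 1, 2 and 3, and without Ctrl 1 another 2 members were called higher. Fewer nuclei or more cytoplasmic RNA in a library cannot be told apart from less of these RNAs per cell. The 8 small nucleolar RNA genes were all negative with none called by edgeR or DESeq2 and 2 lower at an unadjusted p below 0.05.

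Calls among genes of sugar breakdown were higher and those among genes of fat breakdown were lower. Of 36 genes of glycolysis and glucose uptake 6 rose and none fell, with a median of 0.16, and those 6 were called in each fit without 1 library, with 2 more without Ctrl 1. Ldha, the muscle form of lactate dehydrogenase that makes lactate, was at 310.5, 331 and 314 CPM in Ctrl against 431, 444 and 449 CPM in Chaf1a cko (log2 fold change 0.47 ± 0.05 (SE), edgeR adjusted p = 1.36e-05). Eno1, the enolase that gives way to a muscle form as muscle matures, was at 187, 189.8 and 203 CPM in Ctrl against 279.8, 270.4 and 289 CPM in Chaf1a cko (log2 fold change 0.53 ± 0.05 (SE), edgeR adjusted p = 2.17e-05). Pgk1 stood at 238, 226 and 238 CPM in Ctrl against 329, 315 and 301 CPM in Chaf1a cko (log2 fold change 0.43 ± 0.05 (SE), edgeR adjusted p = 0.000123). Values of the 2 groups did not overlap in any of them, nor in Gpi1 (0.32), Pkm (0.25) or Aldoa (0.24). Ldhb, the heart form of lactate dehydrogenase, was at 483 ± 5.72 CPM in Ctrl against 518 ± 11.4 CPM in Chaf1a cko (mean ± SD, n = 3) and did not pass (edgeR adjusted p = 0.401). Gyg, which encodes the primer protein of glycogen, was at 84.9, 84.3 and 86.8 CPM in Ctrl against 130.9, 115 and 135 CPM in Chaf1a cko (log2 fold change 0.57 ± 0.08 (SE), edgeR adjusted p = 0.000336), a call that held.

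Most of the glycolytic genes are also known targets of hypoxia-inducible factor, so that a list of other hypoxia-response genes was read beside them. It held 31 genes, of which 2 rose, with a median of 0.04. Fam162a, a mitochondrial protein gene induced by hypoxia, was at 57.2, 53.3 and 57.2 CPM in Ctrl against 97.7, 93.1 and 89.0 CPM in Chaf1a cko (log2 fold change 0.74 ± 0.08 (SE), edgeR adjusted p = 5.92e-05), a call that held, and Mif, a cytokine gene, rose by 0.42 (1 of 6). Vegfa, a known target added after its value was seen, was at 232 ± 10.6 CPM in Ctrl against 219.7 ± 7.77 CPM in Chaf1a cko (mean ± SD, n = 3), log2 fold change -0.08, and did not pass (edgeR adjusted p = 0.729). The part of hypoxia in the glycolytic differences was not tested.

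Of 49 genes of fatty acid uptake and oxidation 4 fell (8.16%, against 0.873% of all genes) and none rose, with a median of -0.07. Pdk4, the kinase that shuts pyruvate out of the Krebs cycle when fat is burned, stood at 114, 96.9 and 95.8 CPM in Ctrl against 71.4, 74.0 and 79.4 CPM in Chaf1a cko (log2 fold change -0.45 ± 0.09 (SE), edgeR adjusted p = 0.0118, 3 of 6). Cd36, the fatty acid transporter, was at 663, 634 and 589.9 CPM in Ctrl against 545, 524 and 562 CPM in Chaf1a cko (log2 fold change -0.21 ± 0.05 (SE), edgeR adjusted p = 0.0306, 1 of 6). The groups did not overlap in either gene. Acaa2, the last enzyme of the beta-oxidation spiral, fell by 0.31 (1 of 6) and the thioesterase gene Acot2 by 0.46 (0 of 6). This count rested on single libraries, being 0, 1 and 3 without Ctrl 1, 2 and 3 in turn and 1, 0 and 1 without Chaf1a cko 1, 2 and 3. Plin4, a lipid droplet protein gene, also fell (log2 fold change -0.58 ± 0.13 (SE), edgeR adjusted p = 0.0382, 0 of 6).

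Several mitochondrial genes rose by small amounts. Of 25 Krebs cycle genes 4 rose (16%, against 1.61% of all genes): Sdhb (0.27), Mdh1 (0.22), Cs (0.20) and Mdh2 (0.17). Their count was 3, 0 and 0 without Ctrl 1, 2 and 3 in turn and 0, 0 and 0 without Chaf1a cko 1, 2 and 3. Of 40 subunits of complexes III, IV and V 5 rose, led by Atpif1, the inhibitor of the ATP synthase, at 329, 319 and 332 CPM in Ctrl against 419, 445 and 422 CPM in Chaf1a cko (log2 fold change 0.39 ± 0.05 (SE), edgeR adjusted p = 8.68e-05). This call held, with no overlap. Cox6a1 (0.45), Cox8a (0.38), Atp5l (0.30) and Atp5h (0.23) were called in 0 to 3 of the 6 fits, and the list's count was 4, 2 and 1 without Ctrl 1, 2 and 3 in turn and 3, 1 and 2 without Chaf1a cko 1, 2 and 3. Of 36 complex I subunits, 28 of them positive, edgeR called none and DESeq2 1, and 9 were higher at an unadjusted p below 0.05.

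Oxct1, the enzyme that lets heart burn ketone bodies, was at 216, 234 and 222 CPM in Ctrl against 338, 319 and 321 CPM in Chaf1a cko (log2 fold change 0.54 ± 0.05 (SE), edgeR adjusted p = 1.13e-05), a call that held, and it was the 1 called of 25 genes of ketone body and branched-chain amino acid breakdown. Ckb, the brain form of creatine kinase that fetal heart also uses, stood at 77.6, 71.0 and 81.6 CPM in Ctrl against 99.5, 107 and 109.5 CPM in Chaf1a cko (log2 fold change 0.46 ± 0.08 (SE), edgeR adjusted p = 0.00558, 4 of 6). The groups did not overlap. Slc25a5, a carrier of adenine nucleotides, rose by 0.27 (3 of 6), and Gpx3, a secreted glutathione peroxidase, was at 145, 125 and 115 CPM in Ctrl against 83.8, 87.9 and 92.0 CPM in Chaf1a cko (log2 fold change -0.55 ± 0.08 (SE), edgeR adjusted p = 0.00153) and its fall held. The desaturase gene Scd2 was at 248, 275 and 275 CPM in Ctrl against 336, 371 and 356 CPM in Chaf1a cko (log2 fold change 0.41 ± 0.06 (SE), edgeR adjusted p = 0.000331), and this call held, while Hsd17b7, of the cholesterol pathway, fell by 0.69 (1 of 6). Shmt2, of mitochondrial one-carbon metabolism, rose by 0.49 (2 of 6).

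Contractile genes changed in both directions, and the most abundant transcripts of all by small, even steps. Myh6 and Myh7 encode the alpha and beta myosin heavy chains, the adult and fetal forms in mouse ventricle. Myh6 was at 40629, 40555 and 40196 CPM in Ctrl against 37196, 37172 and 36818 CPM in Chaf1a cko (log2 fold change -0.13 ± 0.01 (SE), edgeR adjusted p = 1.09e-06). Myh7 was at 16152, 15404 and 15048 CPM in Ctrl against 17827, 18094 and 18084 CPM in Chaf1a cko (log2 fold change 0.21 ± 0.02 (SE), edgeR adjusted p = 0.000336). The adult form was thus 1.09-fold lower and the fetal form 1.16-fold higher, with no overlap in either gene, and both calls held. The Myh6 promoter also drove the Cre, and whether the transgene adds counts to Myh6 was not tested. Titin, Ttn, was at 37085, 35889 and 35452 CPM in Ctrl against 33378, 33439 and 33231 CPM in Chaf1a cko (log2 fold change -0.12 ± 0.01 (SE), edgeR adjusted p = 0.000106). A list of 32 natriuretic and hypertrophy genes had 2 rises and 1 fall (9.38% called, against 2.48% of all genes). Calls rose with abundance, and these shares were not adjusted for level. Of the 32, 14 were positive, and their median was -0.02.

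Within the thick filament and M-band list 5 of 18 genes rose and 4 fell. The 2 light chain genes of the atrium fell most. Myl7 stood at 110.4, 99.9 and 91.0 CPM in Ctrl against 57.7, 59.7 and 56.0 CPM in Chaf1a cko (log2 fold change -0.80 ± 0.09 (SE), edgeR adjusted p = 4.54e-05), and Myl4 at 342, 335 and 329.8 CPM in Ctrl against 221, 215 and 234 CPM in Chaf1a cko (log2 fold change -0.59 ± 0.05 (SE), edgeR adjusted p = 4.16e-06). In both, the groups did not overlap. On the other side, Myom2, an M-band protein gene of mature fast muscle, was at 405, 383 and 391.6 CPM in Ctrl against 528, 514 and 486 CPM in Chaf1a cko (log2 fold change 0.37 ± 0.05 (SE), edgeR adjusted p = 0.00012), Mybpc3 rose by 0.18 and the ventricular light chain gene Myl3 by 0.12 (1 of 6). The calls of Myl7, Myl4, Myom2 and Mybpc3 held. Mylk3, the cardiac myosin light chain kinase gene, rose by 0.30 (3 of 6). Called members numbered from 3 to 6 higher, with 4 lower each time, in the fits without 1 library.

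Of 21 thin filament genes 2 rose and 2 fell. Acta2, the smooth muscle actin that immature and stressed cardiomyocytes also make, was at 609, 574 and 569 CPM in Ctrl against 849, 866 and 846 CPM in Chaf1a cko (log2 fold change 0.55 ± 0.04 (SE), edgeR adjusted p = 4.08e-07). Lmod2, which lengthens thin filaments, was at 259, 241 and 243 CPM in Ctrl against 193, 191 and 189 CPM in Chaf1a cko (log2 fold change -0.38 ± 0.05 (SE), edgeR adjusted p = 0.000785). These 2 calls held, with no overlap. Actb (0.15) and Actc1 (-0.09) were called in none of the 6 fits. At the Z-disc, Xirp1, an actin-binding protein gene of intercalated discs and of muscle repair, fell furthest: it stood at 545, 508 and 527 CPM in Ctrl against 307, 344 and 324 CPM in Chaf1a cko (log2 fold change -0.70 ± 0.05 (SE), edgeR adjusted p = 4.08e-07). Flnc, filamin C, was at 904, 881 and 859 CPM in Ctrl against 637, 656 and 635 CPM in Chaf1a cko (log2 fold change -0.46 ± 0.04 (SE), edgeR adjusted p = 1.38e-06). Both falls held. Myoz2, a calcineurin-binding Z-disc protein gene, was at 119, 118 and 112 CPM in Ctrl against 154, 164 and 163 CPM in Chaf1a cko (log2 fold change 0.46 ± 0.06 (SE), edgeR adjusted p = 0.000488) and held, and the muscle LIM protein gene Csrp3 rose by 0.23 (1 of 6). In the intercalated disc list 3 of 40 rose, of which desmoplakin, Dsp, held (2094, 2047 and 2067 CPM in Ctrl against 2328, 2323 and 2304 CPM in Chaf1a cko; log2 fold change 0.16 ± 0.02 (SE), edgeR adjusted p = 0.00131). Higher calls made up 7.5% of that list, against 1.61% of all genes. Itgb1 (0.17) and Popdc2 (0.25) were each called in 1 of the 6 fits, and that list's count was 3, 1 and 1 without Ctrl 1, 2 and 3 in turn and 1, 1 and 1 without Chaf1a cko 1, 2 and 3.

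**Figure D4:**
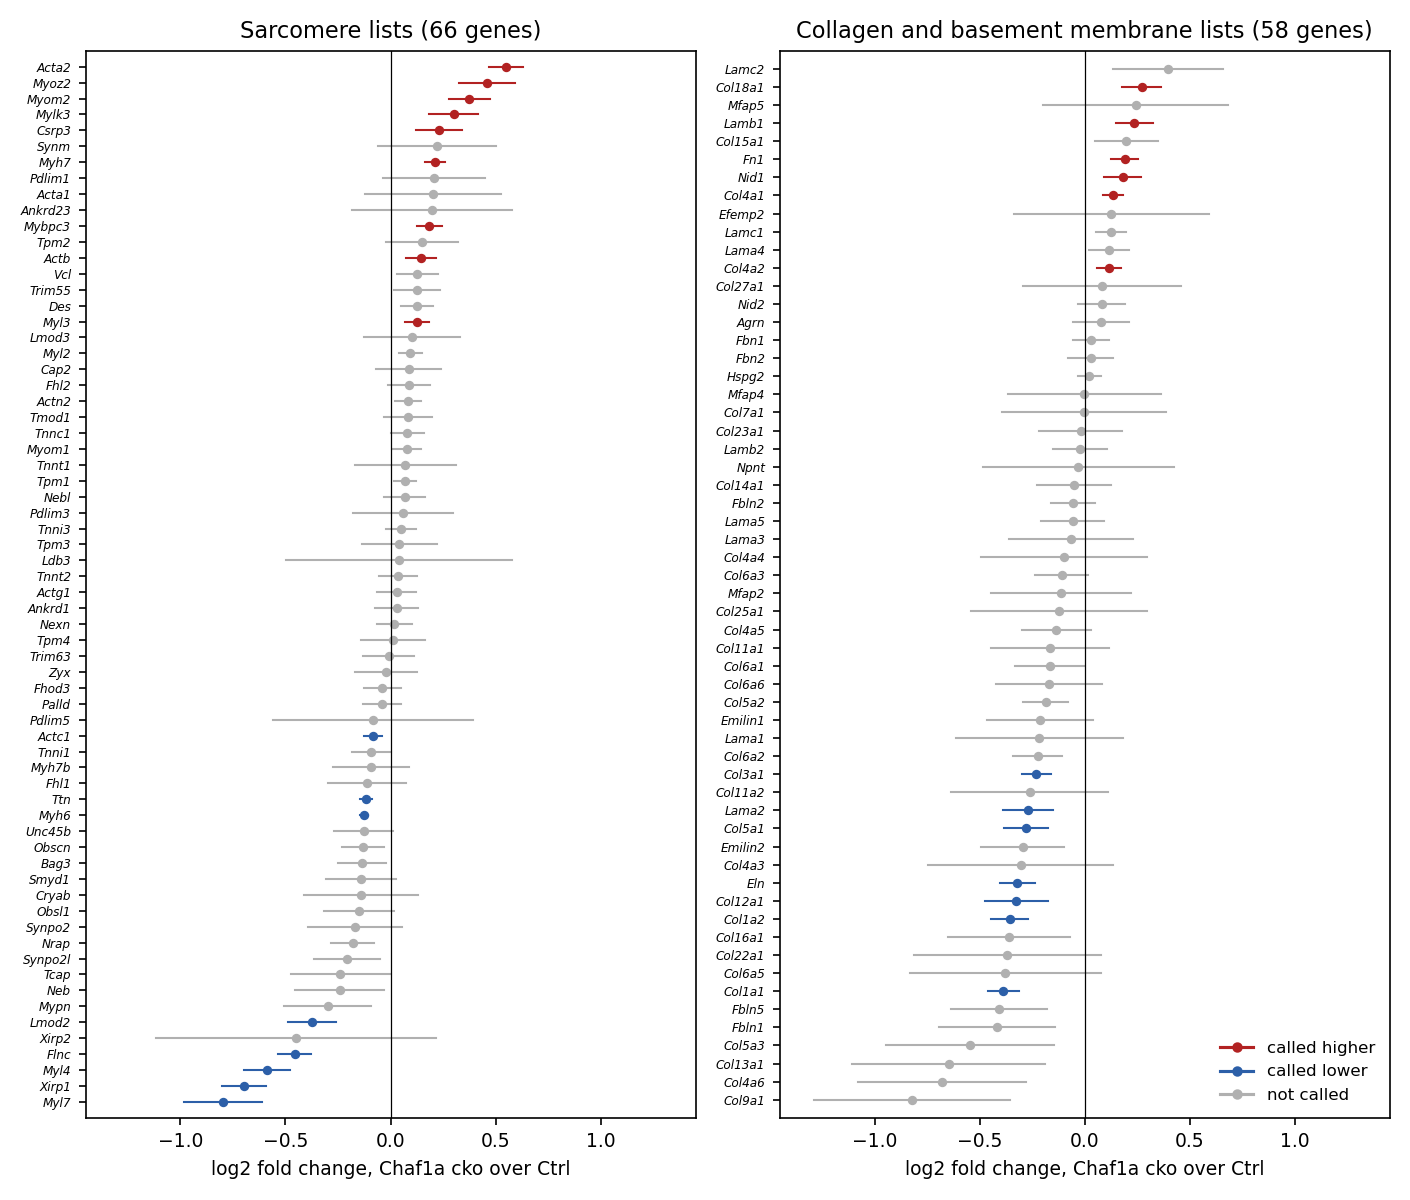
Log2 fold change of Chaf1a cko over Ctrl with its 95% interval for 66 genes of the sarcomere lists (left) and 58 genes of the collagen and basement membrane lists (right), sorted by size; called genes are red where higher and blue where lower. Changes ran both ways in both panels, with Acta2 and Myl7 at the ends of the called sarcomere genes.

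Of the calcium handling genes, those of the main pump and of the release channel were lower. Atp2a2, which encodes the SERCA2 pump that refills the sarcoplasmic reticulum, was at 3610.2, 3408 and 3465 CPM in Ctrl against 2841, 2959 and 2822 CPM in Chaf1a cko (log2 fold change -0.28 ± 0.03 (SE), edgeR adjusted p = 9.17e-06). Ryr2, the calcium release channel, was at 3467, 3230.4 and 3175 CPM in Ctrl against 2799.6, 2786 and 2796 CPM in Chaf1a cko (log2 fold change -0.24 ± 0.03 (SE), edgeR adjusted p = 0.000118). Each of the 3 Chaf1a cko libraries was below each Ctrl library, and both calls held. With Cacna2d2, these made 3 lower of 34 genes in the list, and Casq1 was the 1 higher. Phospholamban, Pln, the inhibitor of the pump, was at 643 ± 1.94 CPM in Ctrl against 713 ± 14.4 CPM in Chaf1a cko, and its log2 fold change of 0.15 did not pass (edgeR adjusted p = 0.0598). Casq2, the cardiac counterpart of Casq1, was at 477 ± 14.2 CPM in Ctrl against 523 ± 18.5 CPM in Chaf1a cko and also missed the threshold (edgeR adjusted p = 0.221). Outside the list, Cacna1a, the pore of a neuronal calcium channel, rose by 0.76 and was called in none of the 6 fits.

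The atrial list had the lowest median of the cardiomyocyte lists, -0.27. Of its 20 genes 7 fell: Myl7, Myl4, Nr2f2, Fgf12, Dkk3, Kcnj3 and Pam. Dkk3 was at 76.5, 93.0 and 99.96 CPM in Ctrl against 45.3, 53.5 and 48.4 CPM in Chaf1a cko (log2 fold change -0.87 ± 0.10 (SE), edgeR adjusted p = 0.000105). Kcnj3, a subunit of the potassium channel that slows the atrium, was at 34.1, 36.2 and 34.0 CPM in Ctrl against 22.3, 19.4 and 20.6 CPM in Chaf1a cko (log2 fold change -0.74 ± 0.13 (SE), edgeR adjusted p = 0.00681, 4 of 6). Pam, the enzyme that amidates peptides and a major protein of atrial granules, was at 1275, 1261 and 1259.5 CPM in Ctrl against 983, 988 and 999.9 CPM in Chaf1a cko (log2 fold change -0.35 ± 0.03 (SE), edgeR adjusted p = 3.99e-06). None of these genes had overlapping groups. One gene of the list went the other way: Nppa, the atrial natriuretic peptide, which ventricles make before birth and under load, was at 798, 786 and 752 CPM in Ctrl against 1217, 1141 and 1165 CPM in Chaf1a cko (log2 fold change 0.59 ± 0.04 (SE), edgeR adjusted p = 1.15e-07). Nppa had the smallest p of all 10199 genes, and its call held. The number of falls was 6, 6 and 6 without Ctrl 1, 2 and 3 in turn and 7, 5 and 6 without Chaf1a cko 1, 2 and 3. How much atrial tissue went into each culture is not in the labels, and its part in these differences was not tested.

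Ventricular genes had no falls, with 3 of 21 higher (14.3%, against 1.61% of all genes) and a median of 0.09. Lbh, a cofactor gene of the developing ventricle, was at 328, 312 and 340.0 CPM in Ctrl against 403, 392.3 and 400.0 CPM in Chaf1a cko (log2 fold change 0.29 ± 0.05 (SE), edgeR adjusted p = 0.00315) and held. Hey2, the repressor gene of the compact ventricular wall, was at 44.3, 49.98 and 55.2 CPM in Ctrl against 76.1, 65.8 and 66.8 CPM in Chaf1a cko (log2 fold change 0.48 ± 0.10 (SE), edgeR adjusted p = 0.0266, 1 of 6). Neither gene's groups overlapped. With Myl3, their count was 3, 1 and 2 without Ctrl 1, 2 and 3 in turn and 1, 1 and 1 without Chaf1a cko 1, 2 and 3. None of 36 cardiac transcription factor genes and none of 39 genes of adrenergic and cyclic nucleotide signalling was called by edgeR, with medians of -0.05 and -0.02. DESeq2 called 0 and 1 of them, and 6 and 7 had an unadjusted p below 0.05.

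Immediate early genes, which cells switch on within minutes of a stimulus or of handling, had lower calls alone. Of 38 genes 9 fell and none rose, 5 had a positive value, and the median was -0.17. In 18 of the 38 all Chaf1a cko values lay below all Ctrl values, against 8.15% of all genes. Egr1 was at 464, 481 and 461 CPM in Ctrl against 318, 325 and 341 CPM in Chaf1a cko (log2 fold change -0.51 ± 0.05 (SE), edgeR adjusted p = 4.59e-06). Fos was at 551, 564 and 582 CPM in Ctrl against 406, 428 and 440.5 CPM in Chaf1a cko (log2 fold change -0.41 ± 0.04 (SE), edgeR adjusted p = 3.23e-05), and Jun, its partner in the AP-1 factor, at 909, 885 and 849 CPM in Ctrl against 713, 708 and 687 CPM in Chaf1a cko (log2 fold change -0.33 ± 0.04 (SE), edgeR adjusted p = 7.04e-05). For these 3, as for the stress factor gene Atf3 (-0.57), Fosb (-0.32) and Ppp1r15a (-0.27), the groups did not overlap and the calls held. Klf4 (-0.29, 4 of 6), Csrnp1 (-0.35, 1 of 6) and Myc (-0.45, 1 of 6) made up the 9. The time from harvest to lysis is not in the labels, and its part was not tested.

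Among targets of YAP and TEAD, factors that read cell stretch and contact, 3 of 29 fell (10.3%, against 0.873% of all genes). Ccn1, a matricellular protein gene that is also an early response gene, was at 322, 316 and 329 CPM in Ctrl against 220.1, 210.4 and 235 CPM in Chaf1a cko (log2 fold change -0.54 ± 0.05 (SE), edgeR adjusted p = 1.62e-05). Amotl2 was at 542, 549.6 and 533 CPM in Ctrl against 429, 433 and 449 CPM in Chaf1a cko (log2 fold change -0.31 ± 0.04 (SE), edgeR adjusted p = 0.000336), and both falls held with no overlap. Ccn2 fell by 0.26 and was called in none of the 6 fits. Ankrd1, a target in cardiomyocytes, was at 376 ± 9.20 CPM in Ctrl against 383 ± 17.7 CPM in Chaf1a cko and did not pass (edgeR adjusted p = 0.915). Each fit without 1 library called 2 of the list.

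Growth factor lists had called shares of 7.5% (insulin and IGF, 40 genes), 6.45% (Notch), 2.33% (vascular) and 2.27% (TGF-beta and BMP), against 2.48% of all genes. In the insulin and IGF list, Igf2r, the receptor that clears IGF2, was at 1655, 1607 and 1571 CPM in Ctrl against 1870.3, 1924 and 1903 CPM in Chaf1a cko (log2 fold change 0.24 ± 0.03 (SE), edgeR adjusted p = 0.000112), and Igfbp5, a binding protein of IGFs, at 893, 827 and 817 CPM in Ctrl against 688, 691 and 722 CPM in Chaf1a cko (log2 fold change -0.27 ± 0.04 (SE), edgeR adjusted p = 0.00118), and both calls held. Irs2 fell by 0.27 (1 of 6). The ligand gene Igf2 split by library and not by group, at 2170.3, 954 and 913 CPM in Ctrl against 2125, 2159 and 935 CPM in Chaf1a cko. Of 44 genes of TGF-beta and BMP signalling 1 fell, the latent binding protein gene Ltbp2 (log2 fold change -0.79 ± 0.16 (SE), edgeR adjusted p = 0.0236, 2 of 6). In 31 genes of the Notch pathway Hey2 rose and Dlk1 fell (log2 fold change -0.74 ± 0.15 (SE), edgeR adjusted p = 0.0166, 1 of 6), and Nrp1, a receptor of VEGF and semaphorins, was the 1 called of 43 vascular genes (log2 fold change 0.25 ± 0.05 (SE), edgeR adjusted p = 0.00728, 4 of 6). No interferon or antigen presentation gene of 27 was called by edgeR, with a median of 0.17, and no inflammatory gene of 19, with a median of -0.03. Of the 27, 21 were positive, and DESeq2 called 2 higher and 1 lower. At an unadjusted p below 0.05, 8 of the 27 were higher and 2 lower, where 16.1% of all genes passed in either direction. Of the 19 inflammatory genes, DESeq2 called 1 lower, and 1 was lower at an unadjusted p below 0.05.

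Genes of the matrix between cells changed in both directions. Of 31 collagen genes 5 fell and 3 rose, with a median of -0.19. The falls were in fibril collagens and a protein that binds them. Col1a1 was at 1111, 1085 and 1123 CPM in Ctrl against 818, 849 and 871 CPM in Chaf1a cko (log2 fold change -0.39 ± 0.03 (SE), edgeR adjusted p = 5.06e-06). Col1a2, the other chain of type I collagen, was at 653, 606 and 626 CPM in Ctrl against 491, 495 and 484 CPM in Chaf1a cko (log2 fold change -0.36 ± 0.04 (SE), edgeR adjusted p = 7.09e-05), and Col3a1 was at 1179, 1165 and 1184 CPM in Ctrl against 1033, 985 and 991 CPM in Chaf1a cko (log2 fold change -0.23 ± 0.03 (SE), edgeR adjusted p = 0.00063). Groups did not overlap, and these 3 falls held. Col5a1 (-0.28, 4 of 6) and Col12a1 (-0.33, 0 of 6) were the others. The rises were in collagens of basement membranes: Col18a1 at 439, 466 and 425 CPM in Ctrl against 531, 534 and 539 CPM in Chaf1a cko (log2 fold change 0.27 ± 0.04 (SE), edgeR adjusted p = 0.00267), a call that held, Col4a1 (0.14, 5 of 6) and Col4a2 (0.11, 1 of 6). The count of rises was 3, 1 and 2 without Ctrl 1, 2 and 3 in turn and 2, 2 and 2 without Chaf1a cko 1, 2 and 3, and that of falls 4, 4 and 4 without Ctrl 1, 2 and 3 in turn and 3, 3 and 4 without Chaf1a cko 1, 2 and 3.

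Basement membrane and elastic fibre genes also went both ways. Fibronectin, Fn1, was at 1473, 1395 and 1446 CPM in Ctrl against 1631, 1659.7 and 1629.5 CPM in Chaf1a cko (log2 fold change 0.19 ± 0.03 (SE), edgeR adjusted p = 0.00181), and its rise held. The laminin gene Lamb1 rose by 0.24 (3 of 6) and nidogen, Nid1, by 0.18 (1 of 6). Elastin, Eln, was at 639, 629.6 and 652 CPM in Ctrl against 498, 526 and 513 CPM in Chaf1a cko (log2 fold change -0.32 ± 0.04 (SE), edgeR adjusted p = 0.000146), and its fall held, and Lama2, the laminin chain of muscle, fell by 0.27 and was called in none of the 6 fits. Called in this list of 27 were thus 3 higher and 2 lower, and the rises numbered 3, 1 and 2 without Ctrl 1, 2 and 3 in turn and 1, 1 and 2 without Chaf1a cko 1, 2 and 3, with 1 fall in each of these fits.

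Of 40 proteoglycans and matricellular proteins 8 fell and 2 rose. Decorin, Dcn, a proteoglycan that coats type I collagen, was at 96.4, 92.2 and 94.2 CPM in Ctrl against 59.5, 58.3 and 62.8 CPM in Chaf1a cko (log2 fold change -0.65 ± 0.08 (SE), edgeR adjusted p = 0.000148). Fmod was at 38.3, 37.7 and 40.8 CPM in Ctrl against 24.5, 23.3 and 17.9 CPM in Chaf1a cko (log2 fold change -0.83 ± 0.14 (SE), edgeR adjusted p = 0.0041). Versican, Vcan, of the loose embryonic matrix, was at 327, 338 and 318 CPM in Ctrl against 268, 265 and 245 CPM in Chaf1a cko (log2 fold change -0.34 ± 0.05 (SE), edgeR adjusted p = 0.00165). Each of these falls held and none had overlapping groups. Lumican, Lum (-0.73), the calcification inhibitor gene Mgp (-0.42) and the aggrecan gene fell too, called in 0, 2 and 1 of the 6 fits, and Ccn1 and Ccn2 made up the 8. Thbs4 was at 32.7, 29.6 and 31.2 CPM in Ctrl against 51.4, 45.0 and 48.7 CPM in Chaf1a cko (log2 fold change 0.64 ± 0.11 (SE), edgeR adjusted p = 0.00673, 4 of 6) and Sparcl1 rose by 0.18 (1 of 6). Falls in this list were 4, 4 and 6 without Ctrl 1, 2 and 3 in turn and 5, 4 and 4 without Chaf1a cko 1, 2 and 3. Of 40 integrins and adhesion receptors Itgb1, Ncam1 (0.23) and Itga1 (0.33) rose, and at most 1 was called in any fit without 1 library. None of 41 matrix enzymes and inhibitors was called by edgeR (median -0.04), but DESeq2 called 5 lower, and 9 were lower and 1 higher at an unadjusted p below 0.05.

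Most of the fibrillar genes are made by fibroblasts, so that the markers of that cell type share genes with the lists above. Of 18 fibroblast markers 5 fell, all 5 of them collagen and proteoglycan genes already counted above, while the other 13 were not called and 5 of the 18 were positive. The sum of the 18 ranged from 4093 to 4198 CPM in Ctrl and from 3459 to 3507 CPM in Chaf1a cko. Each fit without 1 library called 4 of the 18. The median log2 fold change of the 18 was -0.23. In 8 of them all Chaf1a cko values lay below all Ctrl values, against 8.15% of all genes. In 2 they lay above, against 13.2% of all genes. The receptor gene Pdgfra, which defines fibroblasts and is not a matrix gene, was at 60.8 ± 8.19 CPM in Ctrl against 51.9 ± 3.74 CPM in Chaf1a cko and did not pass (edgeR adjusted p = 0.495). Postn was at 498 ± 15.3 CPM in Ctrl against 483 ± 9.29 CPM in Chaf1a cko, without a call (edgeR adjusted p = 0.809). In bulk RNA, fewer cells of a type and less RNA per cell cannot be told apart, and the part of fibroblast number in the matrix values was not tested.

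Cardiomyocyte markers matched the labelled cell type: their sum was 121693 ± 2578 CPM in Ctrl against 118329 ± 338 CPM in Chaf1a cko. All 24 were at 10 CPM or more. Markers of other cell types were counted as well. All 22 markers of blood endothelium were at 10 CPM or more, with sums of 4518 ± 148 and 4539 ± 26.7 CPM, 1 called higher (Tal1) and 1 lower, the water channel gene Aqp1 (-0.36, 1 of 6). Of 13 markers of pericytes and smooth muscle 2 rose, Acta2 and the calponin gene Cnn1 (0.75, 2 of 6), and 1 fell, the smooth muscle myosin gene Myh11 (log2 fold change -0.41 ± 0.08 (SE), edgeR adjusted p = 0.0118, 2 of 6). Among 11 erythroid markers Hbb-b2, at 277, 259.9 and 265 CPM in Ctrl against 363, 363 and 353 CPM in Chaf1a cko (log2 fold change 0.43 ± 0.05 (SE), edgeR adjusted p = 5.46e-05), and Tal1 were called, both held, and the list's sum was 2777 ± 95.8 CPM in Ctrl against 3744 ± 33.4 CPM in Chaf1a cko. Most of that sum came from listed genes without a call. Of the 11 markers, 7 had a positive log2 fold change. All Chaf1a cko values lay above all Ctrl values in 5 of them, against 13.2% of all genes, and below in 2, against 8.15%. The part of erythroid or endothelial cells in the Tal1 difference, and of erythroid cells in the sum, was not tested. Of 22 macrophage markers 4 reached 10 CPM, of which edgeR and DESeq2 called none and 1 was lower at an unadjusted p below 0.05. No marker on the lymphocyte list reached it.

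A list of imprinted genes, of which only the copy from one parent is used in at least some tissues, had 5 falls and 2 rises among 34. Which copies these cells use was not tested. Mest was at 426, 454 and 428 CPM in Ctrl against 564, 579.6 and 543 CPM in Chaf1a cko (log2 fold change 0.37 ± 0.04 (SE), edgeR adjusted p = 0.000105), and with Igf2r it was one of 2 rises, both of which held. Dcn, already counted among the proteoglycans, Dlk1, Meg3, Zrsr1 (-0.43, 0 of 6) and the zinc finger gene Peg3 (-0.25, 4 of 6) fell. Dlk1 (chr12:109452485-109463336) and Meg3 (chr12:109540996-109571729) lie in the same imprinted cluster of chromosome 12 and are used from opposite parental copies. Falls in the list were 3, 3 and 2 without Ctrl 1, 2 and 3 in turn and 2, 1 and 2 without Chaf1a cko 1, 2 and 3. H19 was at 3664, 3449 and 3393 CPM in Ctrl against 3611, 3701 and 3768 CPM in Chaf1a cko, and the groups overlapped (edgeR adjusted p = 0.297).

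Some calls lay side by side on the chromosomes. Taking called genes whose starts were at most 250 kb apart, a rule set after the values were seen, gave 6 runs of 3 or more. Both runs of 8 were histone clusters of chromosome 13, at chr13:21716412-22036320 and chr13:23531044-23764412, and one was the 4 Y-linked genes. A run of 4 on chromosome 6, at chr6:71812997-71979435, held Mrpl35, Immt, Ptcd3 and Polr1a, all higher. Mrpl35 and Ptcd3 serve the mitochondrial ribosome, Immt organises mitochondrial cristae and Polr1a is the large subunit of RNA polymerase I. Polr1a was at 52.9, 47.6 and 55.4 CPM in Ctrl against 68.4, 85.1 and 74.4 CPM in Chaf1a cko (log2 fold change 0.55 ± 0.10 (SE), edgeR adjusted p = 0.00812, 4 of 6). Ptcd3 was at 22.5, 26.9 and 29.4 CPM in Ctrl against 38.0, 40.5 and 42.2 CPM in Chaf1a cko (log2 fold change 0.61 ± 0.13 (SE), edgeR adjusted p = 0.026, 1 of 6), Immt at 298, 272 and 277 CPM in Ctrl against 341, 339.5 and 345 CPM in Chaf1a cko (log2 fold change 0.28 ± 0.05 (SE), edgeR adjusted p = 0.00727, 2 of 6) and Mrpl35 at 14.9, 9.52 and 10.7 CPM in Ctrl against 20.8, 20.6 and 23.3 CPM in Chaf1a cko (log2 fold change 0.89 ± 0.19 (SE), edgeR adjusted p = 0.0264, 1 of 6). None of the 4 had overlapping groups. Within 1 Mb on either side, none of 8 genes before and none of 15 after the run was called by edgeR or DESeq2, 2 and 5 had an unadjusted p below 0.05, and their median log2 fold changes were 0.10 and 0.02. Under the rule, an edgeR call starting within 250 kb would have joined the run. For the nearest neighbours the lack of an edgeR call was thus fixed beforehand. The remaining 2 runs, on chromosomes 8 and 9, held 3 genes each and went both ways.

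Chromosome 13 had the largest share of called genes among the autosomes, 28 of 392 (7.14%), and 3.36% without its histone genes. Around Chaf1a on chromosome 17, where the floxed allele and linked sequence lie, 1 of 37 genes within 5 Mb was called, Plin4. On the rest of that chromosome 6 of 422 rose and 1 fell. Calls made up 7.64% of protein-coding genes spanning under 5 kb and between 1.50% and 2.26% in each bin of longer genes. Of the 825 shortest, histones among them, 50 rose and 13 fell, with a median of 0.06, and of 680 spanning 200 kb or more 6 rose and 9 fell, with a median of -0.03. The medians of the bins between them were 0.05, 0.04, 0.02 and 0.00 in order of length.

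Outside all lists 86 genes were called. Vim, vimentin, the intermediate filament of mesenchymal and of immature muscle cells, was at 2111, 2045 and 1995 CPM in Ctrl against 2407, 2379 and 2409 CPM in Chaf1a cko (log2 fold change 0.23 ± 0.03 (SE), edgeR adjusted p = 9.84e-05). Pdzd2, a PDZ scaffold protein gene, was at 329.7, 306 and 331 CPM in Ctrl against 235, 226 and 228 CPM in Chaf1a cko (log2 fold change -0.49 ± 0.05 (SE), edgeR adjusted p = 2.8e-05), and Rasl11b, a small GTPase gene, at 138, 133.7 and 130.8 CPM in Ctrl against 97.2, 92.0 and 103 CPM in Chaf1a cko (log2 fold change -0.46 ± 0.07 (SE), edgeR adjusted p = 0.00146). Bex1 was at 62.4, 55.6 and 53.3 CPM in Ctrl against 95.9, 102 and 89.6 CPM in Chaf1a cko (log2 fold change 0.75 ± 0.09 (SE), edgeR adjusted p = 0.000102). In these 4 genes every Chaf1a cko value lay on one side of every Ctrl value, and the calls held. Bex1, among the largest rises, was chosen partly for that separation. Further rises that held were those of Adam9, a membrane metalloprotease gene (0.51), Ivns1abp (0.34), the cyclophilin gene Ppia (0.29) and moesin, Msn (0.25). Ppia has many near-identical processed copies in the genome.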

How the data were processed

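Cultured cardiomyocytes were lysed in TRIzol for total RNA, and libraries were made with a stranded KAPA kit that removes ribosomal RNA, per the labels' protocols. FastQC, Trimmomatic, HISAT2 and the mm10 genome are named, per the submitters' processing notes. The authors deposited raw counts per gene symbol for each library. No source used here gives the counting program, its strand setting, its annotation or its treatment of shared reads. Thus values of overlapping genes and of near-identical copies are uncertain.

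From these counts, edgeR 4.0.16 (with limma 3.58.1, in R 4.3.3) gave TMM-scaled CPM and quasi-likelihood tests of Chaf1a cko over Ctrl with no covariate. The fit held the 22965 genes that passed filterByExpr (minimum count 10, minimum total 15), and p-values were Benjamini-Hochberg adjusted over all of them, with a threshold of 0.05. Levels are CPM and are not scaled by gene length. Tables were joined in Python 3.11.15 with pandas 2.3.3, and coordinates and promoters came from RefSeq tables on GRCm38.p6. In simulated libraries of the same means, 22633 genes were fitted. The fit found 91 of 100 genes changed 2-fold and 16 of 100 changed 1.3-fold. Beside these right calls it made 13 false ones, a larger share of its calls than the 0.05 that the threshold aims at. DESeq2 1.42.0, other scalings, other filters, a replicate block, glmTreat and the removal of each library were tried as alternatives.

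The gene lists and the genes described were chosen with earlier results of these data known. The rule for named genes took Chaf1a, the 12 highest and 12 lowest called log2 fold changes outside Y-linked, histone and predicted genes, the 12 smallest p outside the lists, up to 5 called members of each list, the Y-linked and X-escape genes, up to 6 called noncoding genes, called genes within 5 Mb of Chaf1a and the genes next to 10 CPM. The 12 highest and 12 lowest were taken only where the ranges of the groups did not overlap. Other genes, such as Pcna, Vegfa, Pln and Pdgfra, were added after their values were seen. Tests of gene lists were not run.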

Additional observations from a re-analysis of the deposited data

How the results depend on the processing

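The counts of called genes moved with the test and with the libraries. With the Wald test of DESeq2 there were 491 calls (323 up, 168 down), where edgeR's quasi-likelihood test called 253, 164 higher and 89 lower. The filter of 10 CPM in 3 libraries gave 171 lower calls with 189 higher, and glmTreat against a 1.2-fold change gave 27, 14 higher and 13 lower. Leaving out each library gave 118 to 187 calls, 67 to 139 higher and 44 to 58 lower. Other scalings, no filter on low counts, and means of 5 or 20 CPM kept the counts within 1.5 times, from 223 to 261. All called genes present in a setting kept their direction in it. Each setting used the libraries on which the genes were called, so that this is no separate support. The sign of the Chaf1a difference turned in 3 of the 6 fits without 1 library, in which its values ranged from -0.13 (without Ctrl 3) to 0.27 (without Ctrl 2), with -0.02 without Ctrl 1 and -0.09 without Chaf1a cko 1, none of them called. Other uncalled genes also took both signs in these fits: Ankrd1 from -0.00908 (without Chaf1a cko 2) to 0.0561 (without Chaf1a cko 3), Rn45s from -0.21 (without Chaf1a cko 3) to 0.23 (without Chaf1a cko 2), Mtmr11 from -0.40 (without Chaf1a cko 1) to 0.13 (without Chaf1a cko 2), Mfsd10 from -0.033 (without Ctrl 2) to 0.13 (without Ctrl 1) and Gm5512 from -0.997 (without Chaf1a cko 1) to 0.47 (without Chaf1a cko 3). The causes were not tested.

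With the replicate number as a block, 184 genes were called, 120 higher and 64 lower, and Gm5512 read -0.21. The deviations of same-numbered libraries correlated at -0.05, 0.05 and 0.01. The labels do not say whether such libraries share more than a number, which these values cannot settle. The pairing was not used in the main fit.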
